A study of Mus musculus with 8 samples.

Results

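Imprinted genes are expressed mainly or only from the copy inherited from 1 parent. Here a list of 36 such mouse genes was examined for open chromatin in unstimulated dendritic cells, among 34623 coding and long noncoding genes of the annotation. All 36 were found among RefSeq genes of build GRCm38.p6, which has the same chromosomes as the authors' mm10, and Nespas was matched by its synonym to Gnasas1. The members are 30 coding genes, 5 long noncoding RNA genes (H19, Kcnq1ot1, Airn, Meg3 and Peg13) and the antisense RNA gene Nespas. Accessible sites were taken from the peak lists of 2 ATAC-seq samples, and a site was called shared where peaks of both replicates overlapped by at least 1 bp. A region was assigned to a gene when it lay within 1 kb of either annotated end, inside the gene, or within 50 kb.

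The series has 8 samples of CD8-positive mouse dendritic cells, and the 2 used here are ATAC-seq libraries of cells left without stimulus. One label gives the spleen as source and another a cell line, and neither a strain, a genotype nor an age is given in the sources used here. ATAC-seq cuts accessible DNA with a transposase and reads it from all cells and from both parental copies together, so a peak shows neither how many cells nor which allele was open. The labels do not say whether the 2 replicates are separate cultures, and their spread may be only technical. The names of the 2 peak lists also carry different tags, which were not interpreted here.

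Imprinting rests on DNA methylation that is laid down in the germ line at control regions and kept on 1 parental copy through every cell division. At most of these regions the maternal copy is methylated, and the region is the promoter of a gene or of a long noncoding RNA that is transcribed from the paternal copy. At H19 and Igf2, and at Dlk1 and Meg3, the paternal copy carries the methylation. Imprinted genes lie in clusters, and many act in fetal growth, the placenta and the brain. The zinc finger protein ZFP57 recognises the methylated hexamer TGCCGC and, with TRIM28, protects the methylation in early embryos.

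The sequences before the start sites differ widely among these genes, and 7 of them are given here. They are the bases before a RefSeq start that lie beyond the outermost end of the gene, up to 250, from 5′ to 3′ on the strand of the gene, with each CpG dinucleotide in capitals. The stretches before Kcnq1ot1 (chr7:143296548-143296797, minus strand), Ube3a (chr7:59228500-59228749, plus strand) and Copg2 (chr6:30896816-30897044, minus strand) lay largely or wholly in a shared accessible region. Of the 250 bases shown for Kcnq1ot1 244 were in the region, of the 250 for Ube3a all 250, and of the 229 for Copg2 174. The stretches before Plagl1 (chr10:13090582-13090831, plus strand), Igf2r (chr17:12769707-12769956, minus strand), Grb10 (chr11:12037429-12037670, minus strand) and Nap1l5 (chr6:58907127-58907376, minus strand) held no base of a shared region. Among these 7 stretches Kcnq1ot1 has the fewest CpG, 5, and lay in open chromatin, while Grb10 has the most, 40, and did not. Bases after the start are left out, so these counts do not describe a whole promoter or control region.
Kcnq1ot1: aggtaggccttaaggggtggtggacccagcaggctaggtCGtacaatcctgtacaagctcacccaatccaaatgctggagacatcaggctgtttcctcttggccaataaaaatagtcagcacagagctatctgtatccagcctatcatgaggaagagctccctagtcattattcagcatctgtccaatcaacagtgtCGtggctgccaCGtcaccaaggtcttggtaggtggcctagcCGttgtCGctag
Ube3a: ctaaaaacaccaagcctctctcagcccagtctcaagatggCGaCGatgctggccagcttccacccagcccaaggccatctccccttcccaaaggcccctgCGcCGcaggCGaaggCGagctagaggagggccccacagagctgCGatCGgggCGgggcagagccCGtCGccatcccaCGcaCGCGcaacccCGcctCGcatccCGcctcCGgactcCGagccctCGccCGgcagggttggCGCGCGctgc
Copg2: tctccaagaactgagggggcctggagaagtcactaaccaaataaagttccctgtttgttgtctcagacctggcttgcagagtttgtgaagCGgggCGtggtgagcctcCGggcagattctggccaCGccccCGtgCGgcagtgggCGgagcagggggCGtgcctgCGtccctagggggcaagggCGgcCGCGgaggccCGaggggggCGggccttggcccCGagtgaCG
Plagl1: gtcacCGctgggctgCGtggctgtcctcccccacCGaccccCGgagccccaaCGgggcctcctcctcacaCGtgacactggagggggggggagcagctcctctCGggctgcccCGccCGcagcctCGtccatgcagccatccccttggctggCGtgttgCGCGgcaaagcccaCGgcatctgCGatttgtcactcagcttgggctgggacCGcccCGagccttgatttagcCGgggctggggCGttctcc
Igf2r: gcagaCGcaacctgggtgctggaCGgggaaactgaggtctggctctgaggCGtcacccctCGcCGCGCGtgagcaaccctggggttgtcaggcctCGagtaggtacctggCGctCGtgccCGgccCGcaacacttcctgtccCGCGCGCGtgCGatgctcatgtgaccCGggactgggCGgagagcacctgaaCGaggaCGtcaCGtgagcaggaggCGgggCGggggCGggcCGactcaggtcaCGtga
Grb10: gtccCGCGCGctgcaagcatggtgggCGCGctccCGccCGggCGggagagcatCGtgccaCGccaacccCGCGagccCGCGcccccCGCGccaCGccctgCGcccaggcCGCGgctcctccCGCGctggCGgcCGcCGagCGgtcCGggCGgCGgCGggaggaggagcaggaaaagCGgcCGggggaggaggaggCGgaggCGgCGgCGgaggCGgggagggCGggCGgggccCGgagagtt
Nap1l5: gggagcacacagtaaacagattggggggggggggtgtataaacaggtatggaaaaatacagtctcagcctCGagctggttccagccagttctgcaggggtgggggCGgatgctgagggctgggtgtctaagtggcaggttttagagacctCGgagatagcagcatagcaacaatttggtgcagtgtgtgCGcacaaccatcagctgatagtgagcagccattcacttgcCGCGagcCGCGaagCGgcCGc

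Replicate 1 listed 50945 peaks on the autosomes, X and Y, and replicate 2 listed 58315. The weakest summits held 7 and 9 reads, so a site with fewer reads is missing from the lists. Where the local background is higher, a site with more reads can be missing too. A gene without a peak thus had no listed opening at this depth and need not be closed. Within 50 kb of the members lay 82 peaks of replicate 1, of which 72 (87.8%, exact 95% interval 78.7 to 94.0) overlapped a peak of replicate 2. Of the 90 peaks of replicate 2 there, 68 (75.6%, 65.4 to 84.0) had a partner in replicate 1. Over the whole lists these shares were 90.0% and 76.5%, so the replicates matched near the members about as they did elsewhere. Genes that mark dendritic cells had a shared region at an end in 7 of 12 cases, among them Xcr1, Flt3 and Itgax, whereas Clec9a, Cd8a, Itgae, Batf3 and Zbtb46 did not, although all 12 had a shared region within 50 kb. The same count was 4 of 6 for plasmacytoid and cDC2 markers (Siglech, Bst2, Tcf4 and Irf4), 2 of 7 for T cell markers (Cd3d and Cd28) and 2 of 6 for B cell markers (Ms4a1 and Ebf1). It was 1 of 6 for NK cell markers (Klre1) and 1 of 7 for fibroblast markers (Col1a1). Over all coding genes the share was 47.3% at an end and 78.6% within 50 kb. The dendritic cell markers, at 58.3% at an end, were not far above the former, and lists this short do not establish which cells were present. Whether other cells contributed to the peaks at the members was not tested.

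Few imprinted genes had an accessible end. A shared region lay within 1 kb of an end of 6 of the 36 members (16.7%, exact 95% interval 6.37 to 32.8), namely Kcnq1ot1, Cdkn1c, Ube3a, Copg2, Impact and Peg13. Over all 34623 coding and long noncoding genes the share was 36.8%. Of the 30 coding members 4 had one (13.3%, 3.76 to 30.7), against 47.3% of 21887 coding genes. A shared region at an end or anywhere inside was present for 14 members (38.9%, 23.1 to 56.5), against 47.7% of all these genes and 59.3% of coding genes. Within 50 kb 22 members had a shared region (61.1%, 43.5 to 76.9), against 73.5% and 78.6%. Of the 30 coding members, 11 had a region at an end or inside and 17 had one within 50 kb. The median number within 50 kb was 2 per member, against 3 over all genes and 4 over coding genes, although members were longer, with a median of 24.3 kb against 12.8 kb and 17.2 kb. Members of 1 cluster share regions and are not independent, and the intervals treat each gene as a separate draw.

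**Figure D1:**
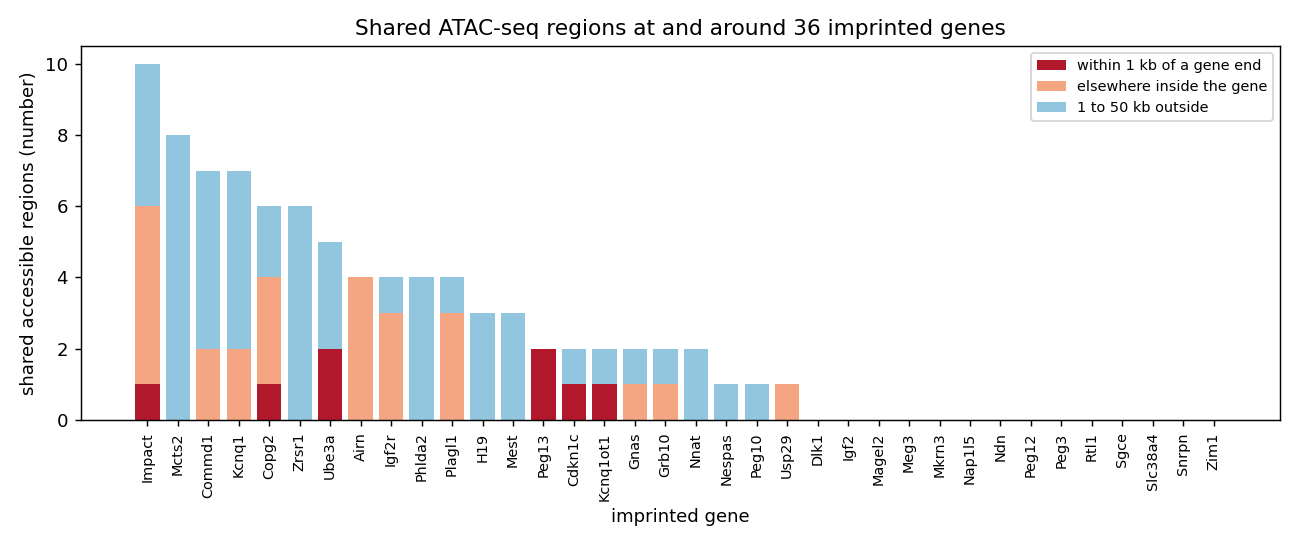
Number of shared accessible regions (vertical axis) at each of the 36 imprinted genes (horizontal axis), split into those within 1 kb of an end, those elsewhere inside the gene and those 1 to 50 kb outside it. A region near several members is counted for each; Impact has the most, 10, and 14 members have none.

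The 68 distinct shared regions within 50 kb of a member comprised 8 at a member's end, 21 elsewhere inside a member and 39 outside. Of those 39, 15 lay within 1 kb of an end of a gene that is not a member. The regions were of ordinary strength. The authors' fold enrichment, the height of a summit over the local background of its own library, had a median of 7.08 in replicate 1 and 7.56 in replicate 2 over the 68 regions, against 7.22 and 7.59 over all 44362 shared regions. At or inside members it ran from 3.85 to 15.3 in replicate 1 and from 4.28 to 14.4 in replicate 2.

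**Figure D2:**
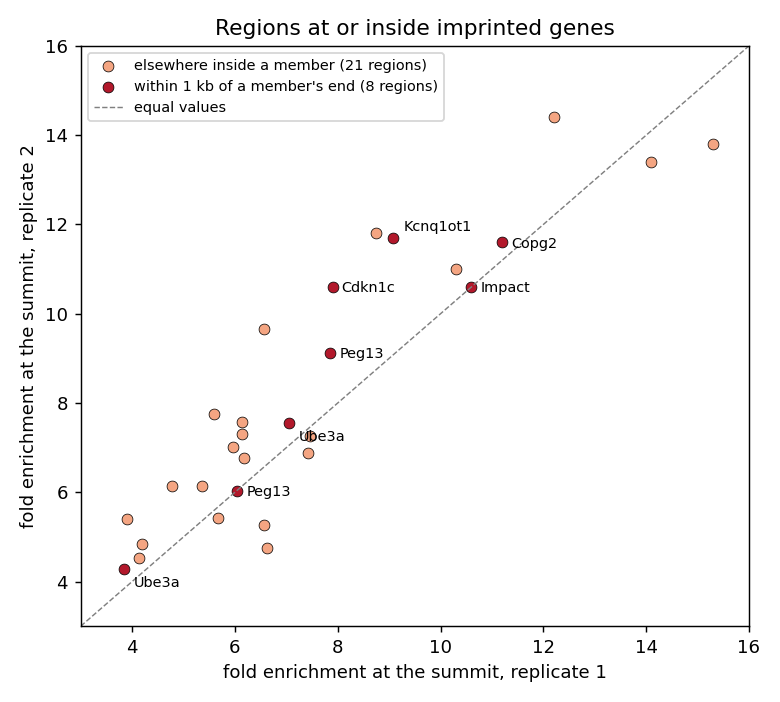
Fold enrichment at the summit in replicate 1 (horizontal axis) and replicate 2 (vertical axis) for the 8 regions at a member's end and the 21 elsewhere inside a member, 1 point per region, with a line of equal values. Copg2 is the highest of the end regions in replicate 1 at 11.2, Kcnq1ot1 the highest in replicate 2 at 11.7, and the weaker Ube3a region the lowest in both.

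Among genes whose start holds, or lies at, a maternally methylated control region, 3 of 17 had an accessible end (17.6%). The share was 36.8% of all genes and 47.3% of coding genes, and 13 of the 17 are coding. A region at an end or inside was present for 7 of 17 (41.2%), near the 47.7% of all genes but below the 59.3% of coding genes. Kcnq1ot1, the paternally transcribed noncoding RNA that silences its neighbours, was open at its start (chr7:143296474-143296791). The region covered the start site itself, inside the gene Kcnq1. Its summit stood 9.08-fold over background in replicate 1 and 11.7-fold in replicate 2, from 20 and 37 reads, which ranked at percentiles 74.9 and 91.0 of the lists. Peg13, a noncoding RNA gene inside Trappc9, had a pair of regions at its higher-numbered end. The larger (chr15:72809814-72810195) reached 7.86 and 9.13, and the other (chr15:72810249-72810414) 6.05 and 6.03. Impact, which encodes an inhibitor of the stress kinase GCN2, had a region 994 bp inside its lower-numbered end (chr18:12955684-12955906) with 10.6 in both replicates. It was the only member whose count rested on the outermost bases of the window, and with windows of 500 bp it was not counted. Another 5 regions lay inside Impact, 4 of them between 12972124 and 12974542, with fold enrichments of 4.14 to 6.17 in replicate 1 and 4.52 to 6.78 in replicate 2.

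Of the other members of this group 4 were open inside but not at an end. Plagl1, which encodes a zinc finger regulator of growth genes, had 3 shared regions in its body. The strongest, 13078 bp from the start (chr10:13103910-13104131), had the highest fold enrichment of any region in a member in replicate 1, 15.3, with 13.8 in replicate 2. At the Plagl1 start itself only replicate 2 had a peak, 25 bp upstream, with a fold enrichment of 4.83 and 10 reads, near the floor of 9. Usp29, a ubiquitin protease gene that starts beside Peg3, had 1 region, 82643 bp from that start (chr7:6813226-6813810), with 8.74 and 11.8. Grb10, which encodes an adaptor that restrains growth signalling, had 1 weak region in its body (5.97 and 7.02), 54313 bp from the nearest listed start. Airn, the noncoding RNA that silences Igf2r, had 4 regions in its body, the nearest 13370 bp from its start.

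Peg3, Snrpn, Mest, Peg10, Sgce, Nespas, Nap1l5, Zrsr1, Mcts2 and Nnat had no shared region at an end or inside. Snrpn, which encodes a splicing protein and lies in the Prader-Willi domain, had 3 peaks within the gene in replicate 2 alone, with fold enrichments of 5.27, 6.59 and 6.15 and 11 to 14 reads. Their distance to the nearest listed Snrpn start was at least 17537 bp. The nearest shared region was 3775 bp from Nnat, 5509 bp from Zrsr1, 8601 bp from Mcts2, 31899 bp from Nespas, 33194 bp from Mest, 37883 bp from Peg10, 51196 bp from Sgce, 72184 bp from Nap1l5, 82764 bp from Peg3 and 659426 bp from Snrpn.

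By the annotation 10 members lie wholly inside another gene, 6 of them in a coding gene and 4 in a long noncoding RNA gene, and they were set beside these hosts after the values were seen. H13, which holds Mcts2, had a shared region at its start (chr2:152669327-152669557) with 8.28 and 7.35. Blcap, which holds Nnat, had a pair at its start, of which chr2:157566557-157566900 was the stronger with 8.79 and 7.54. Herc3, which holds Nap1l5, had one 651 bp from its start (chr6:58831734-58831922) with 7.31 and 5.24. Commd1, a regulator of copper transport and NF-kB that holds Zrsr1, had a region over a listed start (chr11:22982005-22982426) with 6.14 and 7.58. That start lies inside the annotated gene, so Commd1 does not count among the 6 members with an accessible end. Trappc9, which holds Peg13, had a region at its higher-numbered end (chr15:73061003-73061381) with 13.8 and 12.7. Kcnq1ot1 and its host went the other way, since Kcnq1ot1 had a region at its start and Kcnq1 had none at its ends. Of the 6 coding hosts 5 thus had a shared region at an end or a listed start, although no start was listed for Kcnq1 and Trappc9. At an end alone it was 4 of 6, against 47.3% of coding genes. Of the 6 members inside these hosts 2 had one at an end, Peg13 and Kcnq1ot1, against 36.8% of all genes. With 6 pairs named after the values were seen, no pattern can be drawn from these counts. Among the noncoding hosts, neither Snhg14, which holds Snrpn, nor Gm32061, which holds Ndn, Magel2 and Mkrn3, had one, and nor did the 4 members inside them.

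The 14 members that neighbour or host a control region included 3 with an accessible end (21.4%, against 47.3% of coding genes, since all 14 are coding). Copg2, a coat protein gene for vesicle transport that lies tail to tail with Mest, had the strongest end region of the members by its lower replicate (chr6:30896698-30896989), 11.2 and 11.6 from 27 and 37 reads, which also reached an end of Tsga13. It had 3 more regions inside, of which chr6:30855977-30856307 was higher still, at 14.1 and 13.4. Ube3a, the ubiquitin ligase gene lost in Angelman syndrome and imprinted in neurons, had a region of 773 bp over its start (chr7:59228294-59229066) with 7.06 and 7.55. A weaker one 521 bp upstream had 3.85 and 4.28. Cdkn1c, which encodes the cell cycle inhibitor p57, had a region over its higher-numbered end (chr7:143461036-143461277) with 7.90 and 10.6.

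Kcnq1, a potassium channel gene, had 2 shared regions inside, the Kcnq1ot1 start and chr7:143180825-143181113 (10.3 and 11.0), and neither was at its own ends. Phlda2, a growth-restraining gene of the placenta, had none at or inside it and its nearest shared region was 27742 bp away. Within 50 kb of Kcnq1, Kcnq1ot1, Cdkn1c or Phlda2 lay 9 shared regions in all and 7 more peaks in 1 replicate only.

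Igf2r, the receptor that removes the growth factor IGF2, had 3 shared regions inside, between 12754681 and 12758215 on chromosome 17, with fold enrichments of 5.59 to 7.46 in replicate 1 and 6.89 to 7.75 in replicate 2. They lie in the stretch where Igf2r and Airn overlap and cannot be assigned to either gene. Neither the Igf2r start nor the Airn start had a shared region, at 11491 bp and 13370 bp from the nearest one. Gnas, which encodes the G protein subunit Gs-alpha and has several promoters, had 1 weak shared region (chr2:174327335-174327477, 3.91 and 5.41) that lies 272 bp from a listed start. It also reached an end of the noncoding gene Gm30189. Replicate 2 alone had a peak over that Gnas start, with 5.85 and 26 reads. Zim1, Ndn, Magel2, Mkrn3, Peg12 and Slc38a4 had no shared region within 50 kb.

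Among the regions that flank a member, chosen for naming after the values were seen, the highest by the lower replicate was one 13622 bp before the Igf2r start (chr17:12783328-12783643). It lay inside Airn, another member, and had fold enrichments of 12.2 and 14.4. One 34220 bp before the Ube3a start (chr7:59194285-59194530) had 11.0 and 13.9, and 2 more lay 9644 and 12034 bp beyond its other end. One 46744 bp beyond Gnas (chr2:174393488-174393743) had 10.2 and 15.3. The site before Ube3a was above the 7.06 and 7.55 of its start in both replicates. Peaks near members that were found in 1 replicate were weak: the 10 of replicate 1 had a median fold enrichment of 5.44 from 10 reads, and the 22 of replicate 2 had 5.27 from 13.5 reads.

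The clusters with a paternally methylated control region were the least accessible of the 3 groups by share of members. None of H19, Igf2, Meg3, Dlk1 and Rtl1 had a shared region at an end or inside, against 47.7% of all genes. Only H19 had any within 50 kb (20%, against 73.5%). H19 with Igf2 fell in 1 stretch without a shared region and Dlk1, Meg3 and Rtl1 in another, so the genes are not independent. For H19, a noncoding RNA gene transcribed from the maternal copy, the nearest lay 3392 bp from an end (chr7:142571983-142572138) with 7.76 and 9.12. The other 2 regions near H19 lay over 40 kb away, beside Mrpl23. Igf2, the fetal growth factor gene, was 78630 bp from the nearest shared region, Dlk1, a ligand that blocks fat cell formation, 461744 bp, Meg3, a noncoding RNA gene, 550255 bp, and Rtl1, a retrotransposon-derived placental gene, 574159 bp. By the expressed copy, 10 of 12 maternally expressed members had a shared region within 50 kb (83.3%, median 3.5 regions) and 12 of 24 paternally expressed ones (50%, median 0.5). Over all genes the share was 73.5% and the median 3, and over coding genes 78.6% and 4. Of the maternally expressed members 10 are coding, and of the paternally expressed ones 20. The maternally expressed members were near both backgrounds in this count. At an end the counts were 3 of 12 (25%) and 3 of 24 (12.5%), against 36.8% of all genes and 47.3% of coding genes. Neither difference was tested, since neighbouring members share regions. The window covers the whole gene and 50 kb on either side, so a longer gene has more room for a region. Gene length was not matched between maternally and paternally expressed members, and its part in these counts was not tested.

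Of the 36 members 22 lay wholly in a stretch without a shared region, and 13 of these were in stretches of 400 kb or more. The other 14 (38.9%) are those with a region at an end or inside, against 47.7% of all genes and 59.3% of coding genes. Lying wholly in such a stretch is thus common among genes in general. A member with no shared region within 50 kb lies in a long stretch by definition. Snrpn, Ndn, Magel2, Mkrn3 and Peg12 fell in a single stretch of 3.25 Mb (chr7:59323070-62571721), the 31st longest of 44307 stretches between neighbouring shared regions, whose median was 12.1 kb. It held 7 coding genes in all, no peak of replicate 1 and 3 peaks of replicate 2. Ube3a lies just outside it. Dlk1, Meg3 and Rtl1 fell in a stretch of 1.38 Mb (chr12:108990742-110373564) that also held 58 miRNA hairpins, with no peak of replicate 1 and 3 of replicate 2. Peg3 with Zim1 (430 kb), Slc38a4 (424 kb), H19 with Igf2 (410 kb), Nespas (210 kb), Peg10 with Sgce (180 kb), Nap1l5 (166 kb) and Mest (106 kb) fell in shorter ones. Phlda2 (74.4 kb), Nnat (65.6 kb), Zrsr1 (52.9 kb) and Mcts2 (18.4 kb) were in the shortest, that of Mcts2 near the median. Stretches of 400 kb or more held 11 of the 30 coding members, against 17.8% of coding genes, and those of 1 Mb or more held 7, against 9.57%. These thresholds were chosen after the values were seen. Whether repeats that short reads cannot place contribute to these stretches was not tested.

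**Figure D3:**
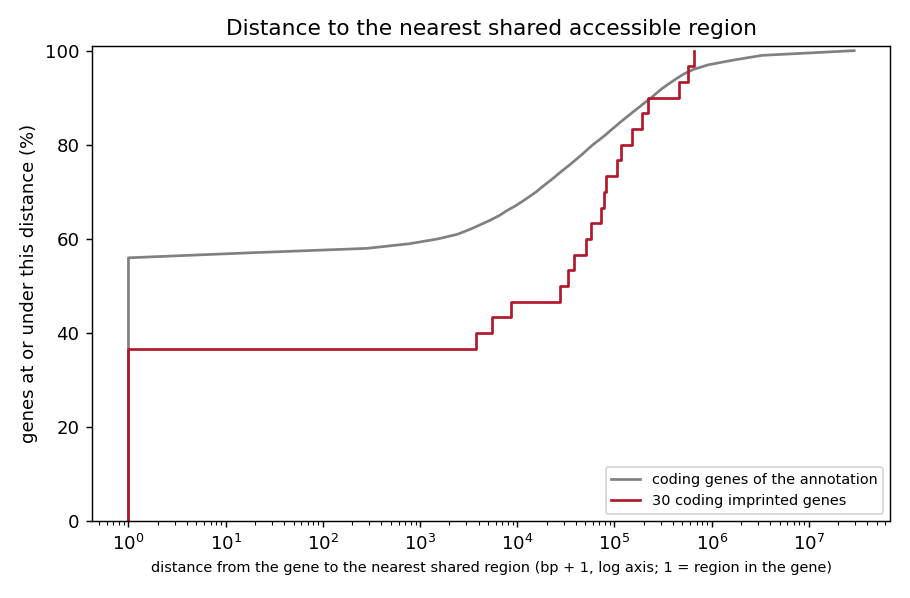
Cumulative share of genes (vertical axis, %) at or under a given distance to the nearest shared region (horizontal axis, bp plus 1 on a log axis) for the 30 coding imprinted genes and for all coding genes. The median distance is 30468 bp for the coding members and 0 bp for coding genes, and 43.3% of the coding members lie over 50 kb away against 21.4%.

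Start sites with strand were listed for 27 of the 36 members, 43 starts in all. A shared region lay within 1 kb of a listed start for 5 of the 27, Kcnq1ot1, Ube3a, Copg2, Commd1 and Gnas, against 37.4% of the 27025 genes in the table. CpG content differed widely among member starts. Only the 250 bases before a start were counted, so CpG after it are missed. In these bases the median was 10 CpG for members and 6 over all 32851 starts. It was 20 for the open member starts and 8 for the others. Of the 9 members with a start that had 15 or more CpG, 3 were open there (33.3%, exact 95% interval 7.49 to 70.1), namely Ube3a, Copg2 and Gnas, against 76.7% of all genes with such a start. The 6 that were not were Grb10, Igf2r, Igf2, Mcts2, Phlda2 and Plagl1. Gnas counted through starts with 21 and 22 CpG beside its weak region (3.91 and 5.41). Its start with 29 CpG lay 2529 bp from that region and was not open. With 25 or more CpG 0 of 3 member starts were open, against 77.1% of all. Of the 21 members with a start below 15 CpG, 2 were open there (9.52%, 1.17 to 30.4), Kcnq1ot1 and Commd1, against 22.0%, which lies within that interval. That background holds many starts with 0 to 4 CpG, of which 8.61% were open, against 0 of 8 for members. With 5 to 9 CpG 1 of 12 member starts was open against 28.0% of all. With 10 to 14 it was 1 of 12 against 58.8%. Starts of the same gene are not independent. The Mest starts at 30738050 and 30738053, both with 14 CpG, have nearly the same window. So do the Gnas starts with 21 and 22 CpG, at 174327749 and 174327768. The split at 15 CpG was chosen after the values were seen.

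**Figure D4:**
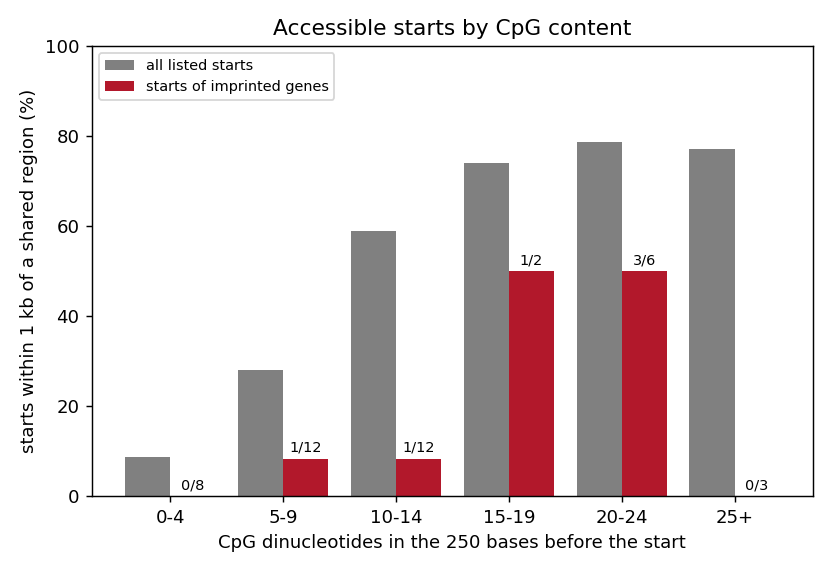
Share of start sites within 1 kb of a shared region (vertical axis, %) by the number of CpG in the 250 bases before the start (horizontal axis), for all listed starts and for those of imprinted genes, with open and total member starts printed above the bars. With 10 to 14 CpG 1 of 12 member starts was open against 58.8% of all, and with 20 to 24 CpG 3 of 6 against 78.7%. Each start is counted, also where starts of 1 gene nearly coincide, as for Mest in the former and Gnas in the latter.

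The hexamer TGCCGC, searched on both strands (TGCCGC or GCGGCA) in the 250 bases before each start, was present in 8 of the 43 member windows, from 7 members, and in 8.68% of all windows. The members were Copg2, Mcts2, Meg3, Mest, Nap1l5, Plagl1 and Zim1. Copg2 alone among them had an open start. The pair of Mest windows overlap, and windows rich in CpG hold the hexamer more often, 21.3% of those with 15 or more. The match describes letters only.

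Other imprinted genes, a list of 44 that holds no member, were accessible at an end in 14 of the 43 found (32.6%), against 36.8% of all genes. All 14 were among the 38 coding genes of the list (36.8%), below the 47.3% of coding genes. The strongest by the lower replicate were Trappc9, a trafficking gene, with 13.8 and 12.7, Inpp5f, a phosphoinositide phosphatase gene, with 11.6 and 10.3, and Nap1l4, a histone chaperone gene, with 11.0 and 10.2. The genes that lay down, keep or erase imprint methylation had accessible ends in 19 of 24 cases (79.2%, against 47.3% of coding genes). They included Dnmt3l with fold enrichments of 10.0 and 10.7, Ehmt1, a histone methyltransferase gene, with 9.57 and 10.1, and Zfp445, a zinc finger partner in imprint protection, with 9.22 and 10.2. Zfp57, the maintenance methyltransferase gene Dnmt1, Dnmt3a, Dppa3 and Ctcfl were the 5 without one. Dnmt1 and Dnmt3a had 3 and 7 shared regions inside, and the nearest to Zfp57 was 3285 bp away.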

How the data were processed

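ATAC-seq peak lists of 2 unstimulated samples, deposited by the authors, were used; the 6 ChIP-seq samples were not analysed here. Per the submitters' processing notes the build was mm10 and the tools were MACS2, HOMER 4.9.1, Picard 2.8.1, BWA 0.7.17 and Trimmomatic, with no role given for any. Transposase shift, duplicate handling and threshold are not given in the sources used here, and each can change which weak peaks are listed. Peaks were called by the authors on each sample separately, as the deposited peak names show. The deposited fold enrichment is a ratio of summit reads to local background in the same library. The −log10 values deposited by the authors, of p and of q, set the summit against that background, and the deposited score is −log10 q times 10. They were used only to describe and rank peaks within a list. The lowest −log10 q was 3.0 in both. The background over the genome was 1.89 times as high in replicate 2, and fold enrichment depends somewhat on it.

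Summits of a peak were joined and the highest −log10 q kept. Reads at a summit were solved from its fold enrichment and p under a Poisson law, and the p came back within 0.002 for 100% of peaks. Gene ends came from RefSeq for GRCm38.p6, starts and sequences from the RefSeq promoter table of that build. Where windows on opposite strands overlapped, all 1677 pairs were reverse complements. Overlap code was tested on simulated data. Exact 95% binomial intervals (Clopper-Pearson) cover counting error only. No test between groups was possible with 1 condition, and no set test was run. Members, lists and the rule for named genes (all 36 members, and from each other list of imprinted genes and factors up to 3 with the highest lower replicate) were chosen with earlier results of these data known. The gene Zfp264 had no match. Another list of marker genes is not reported here. Alternatives covered overlap, score, replicates and windows. Python 3.11.15, numpy 2.4.6, scipy 1.17.1, pandas 2.3.3 and matplotlib 3.10.9 were used.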

Additional observations from a re-analysis of the deposited data

How the results depend on the processing

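The count of members with an accessible end ran from 5 to 7 over its alternatives: 5 with windows of 500 bp (43.9% of coding genes), 5 by the centre of the region (46.6%), 5 of the 27 with listed starts (37.4% of genes in the start table), 6 with 2 kb (51.7%), 6 with a reciprocal overlap of 50% (43.9%) and 6 with the better-scoring 50% of each list, where the share of coding genes fell to 34.4%. With replicate 1 or 2 alone the count at an end was 6 and 7 (48.3% and 49.7% of coding genes). The count at an end or inside was 14 and 15 (60.7% and 62.2%), and the count within 50 kb 22 and 25 (79.2% and 81.2%). The median number within 50 kb was 2 in both, against 5 and 6 for coding genes. Member counts are of all 36 members, not only the coding ones. The better-scoring 50% gave 11 at an end or inside and 18 within 50 kb (45.8% and 71.2% of coding genes). The count within 50 kb was 21 with a reciprocal overlap of 50% (77.3% of coding genes). With windows of 20 and 100 kb it was 18 and 27 (71.8% and 83.8%). The median moved to 0.5 with the better-scoring 50%, to 0.5 within 20 kb and to 1 without regions at an end of another gene, where coding genes had 2 in each case. The share of peaks near members with a partner was 81.4% over both lists and moved to 72.1% with a reciprocal overlap of 50% (82.8% and 74.0% over all peaks). Depth limits what can be said of closed sites, since sites under 7 reads in replicate 1 or 9 in replicate 2 are not listed. No paired analysis was possible because the files cover 1 group.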
